A study of Homo sapiens with 12 samples.

Results

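Androgen receptor target genes other than the kallikreins were followed in 2 enzalutamide-resistant prostate cancer cell lines in which CXCR7 had been knocked down. Their members were 34 genes listed by name, and a listed gene was kept where its deposited RPKM (reads per gene length and mapped reads) reached 0.5 in at least 3 of the 12 libraries. This left 30 genes, of 14204 genes that passed the same floor and 26441 in the table. MAF, HPGD, STEAP4 and PART1 stayed below it in every library, with a highest RPKM of 0.493, 0.185, 0.300 and 0.366. The symbol PPAP2A is an older name of PLPP1, and all 34 were protein-coding genes in GENCODE except PART1, a long noncoding RNA.

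LNCaP-EnzR and C4-2B-EnzR cells, titled LNCaP_MDVr and C4-2B_MDVr by the submitters, are prostate cancer lines that became resistant to the androgen receptor antagonist enzalutamide, kept at 2 µM in the first line and 10 µM in the second. Each line was infected with a control lentivirus (pLKO, called LKO here) or with a lentiviral hairpin against CXCR7 (shCXCR7), and total RNA was taken 4 days after infection. Every group held 3 libraries, numbered 1 to 3. All 4 groups therefore shared enzalutamide, fetal bovine serum and viral infection, and no group without drug or virus was analysed here. The control and knockdown of a line shared 1 P number in their titles (23 in LNCaP-EnzR, 15 in C4-2B-EnzR), whose meaning the labels do not give. Nothing says that the 3 libraries of a group came from separate cultures, so each p-value measures only the spread between these libraries, which may be technical.

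The androgen receptor is a nuclear receptor that, once bound by androgen, enters the nucleus and binds DNA at androgen response elements, which are inverted repeats of a short word, mostly in enhancers far from the genes they act on. In luminal prostate cells it drives secretory, lipid-handling and protein-folding genes, together with feedback regulators of its own signalling. Several of these genes carry elements that the glucocorticoid receptor also recognises. CXCR7, listed under its current symbol ACKR3, is an atypical chemokine receptor that signals through beta-arrestin rather than through G proteins.

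One library stood apart from the others before any comparison. In LNCaP-EnzR shCXCR7 replicate 3 the RPKM denominator was 3.74 times that of LNCaP-EnzR LKO replicate 1, against 1 to 1.48 in the other 11, although its reads in genes (9772498) lay within their range of 6381627 to 9833682. It listed 1636 genes at 0, against 8719 to 9652 in the others, and had a median of 0.234 RPKM over 5096 genes that were at 0 elsewhere. Values below are RPKM rescaled within each line by median-of-ratios factors, unless called deposited, and the factor of that library was 0.50, against 1.10 to 1.20 in the other LNCaP-EnzR libraries, and values were divided by it. The low members RAB3B, PTGER4, KCNN2 and TUBA3D had their highest LNCaP-EnzR value there, as did ZBTB16, EAF2 and AZGP1. The same held for SGK1, GNMT and ALDH1A3, which were called higher in that line. Without that library SGK1 and ALDH1A3 kept their calls and GNMT lost its call. The part of the background in the values of all these members was not tested. ACKR3 read 122, 117 and 111 in LNCaP-EnzR LKO and 55.8, 50.6 and 41.6 in shCXCR7 (log2 fold change -1.25, SE 0.11, adjusted p = 8.38e-05), and 83.9, 86.5 and 85.7 against 22.2, 23.7 and 19.0 in C4-2B-EnzR (-1.97, SE 0.09, adjusted p = 0.000107). All 8 luminal epithelial markers passed the floor, while 1 of 5 basal, 1 of 6 fibroblast, 1 of 6 blood and 2 of 7 neuroendocrine markers did. The neuroendocrine sum, carried by ENO2 and SYP, was 12.2 to 14.4 rescaled RPKM in LNCaP-EnzR LKO and 6.72 to 11.6 in shCXCR7, and 19.7 to 21.6 against 14.97 to 16.6 in C4-2B-EnzR, and its part in the members' values was not tested. In bulk RNA, fewer cells of a type and less RNA per cell cannot be told apart.

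Androgen receptor targets moved in both directions after CXCR7 knockdown. In LNCaP-EnzR, 8 of the 30 fell, namely ZBTB10, PPAP2A, TMPRSS2, ABCC4, ADAMTS1, CENPN, HERC3 and C1orf116, or 26.7% against 19.1% of all genes tested at an adjusted p below 0.05. Another 4 rose (SGK1, LIFR, GNMT and ALDH1A3), or 13.3% against 16.8%. In C4-2B-EnzR, 9 fell and 9 rose, or 30% in each direction against 19.5% and 19.4% of all genes. The median log2 fold change of the 30 was 0.01 in the former line and 0.04 in the latter, beside 0.03 and 0.00 over all genes tested, so the members had no common direction as a group. Lower in both lines were 6 of the 30 (ZBTB10, PPAP2A, TMPRSS2, ABCC4, CENPN and HERC3; 20% against 10.7% of all genes), and higher in both were SGK1, LIFR, GNMT and ALDH1A3 (13.3% against 9.6%). Under the stricter rule of at least a 2-fold change and an adjusted p below 0.001, PPAP2A, TMPRSS2 and ABCC4 were called lower in LNCaP-EnzR, and these and CENPN in C4-2B-EnzR. That rule called 1.86% and 1.87% of all genes lower in the respective lines, and 1.63% and 1.22% higher, among which was no member. Groups did not overlap for 8 lower and 7 higher members in LNCaP-EnzR (24.5% and 24.7% of all genes) and for 10 lower and 9 higher in the other line (26% and 26.6%). Among the 7 was PTGER4, which reached the floor in 4 libraries, all of them shCXCR7. The floor itself thus favoured a higher knockdown group for PTGER4. Called in neither line were 11 members (36.7% against 46.1% of all genes). Without LNCaP-EnzR shCXCR7 replicate 3, 10 members fell and 5 rose in that line, against 20.8% and 20.2% of all genes. On deposited values without rescaling, 3 passed there (PPAP2A and ABCC4 lower, SGK1 higher), against 2.56% of all genes lower and 1.94% higher. Falls that no longer passed were larger in size on those values, with TMPRSS2 at -1.44, ADAMTS1 at -1.26, ZBTB10 at -1.08, HERC3 at -0.98, C1orf116 at -0.88 and CENPN at -0.84. The rises that no longer passed were smaller, with ALDH1A3 at 0.55, GNMT at 0.47 and LIFR at 0.38.

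**Figure D1:**
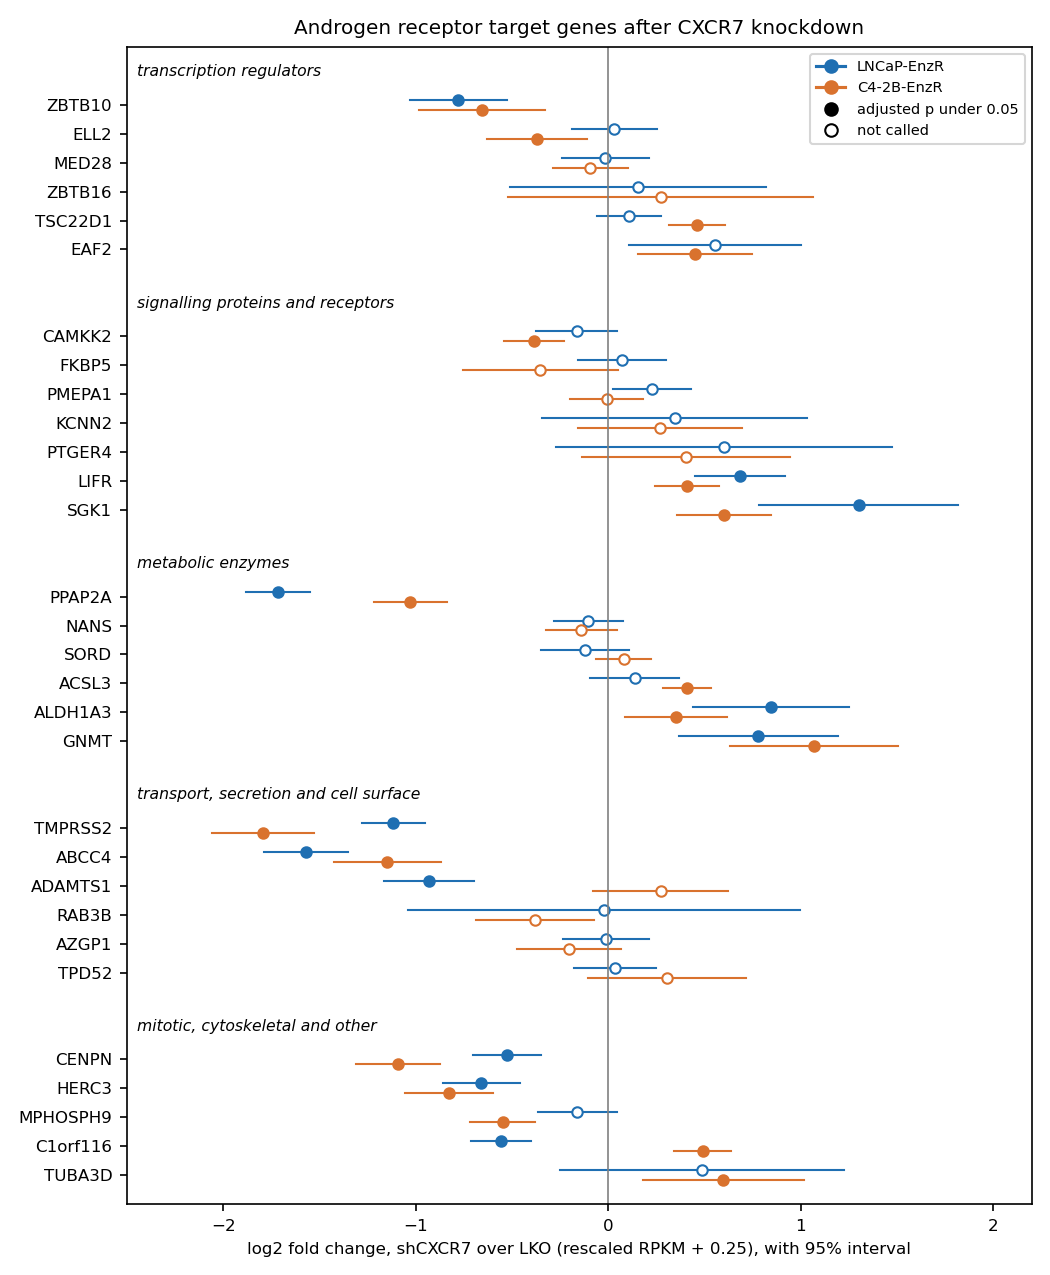
Log2 fold change of each of the 30 members after CXCR7 knockdown (x axis, rescaled RPKM + 0.25, lines are 95% intervals) in LNCaP-EnzR (blue) and C4-2B-EnzR (orange) cells, grouped by role. Filled points passed an adjusted p below 0.05; PPAP2A, TMPRSS2 and ABCC4 lie below -1 in both lines.

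Among genes of transport, secretion and the cell surface, 3 of 6 fell in LNCaP-EnzR (50% against 19.1% of all genes) and 2 of 6 in C4-2B-EnzR (33.3% against 19.5%), and none rose (16.8% and 19.4% of all genes). Role groups are small, so these shares describe the listed genes and nothing beyond them. TMPRSS2, a serine protease of the luminal cell surface whose promoter is often fused to ERG in prostate cancer, lies on chromosome 21 (41464300 to 41531116, minus strand, GRCh38). Its levels were 28.2, 30.5 and 30.8 RPKM in LNCaP-EnzR LKO and 14.4, 13.7 and 12.77 in shCXCR7, a log2 fold change of -1.12 (SE 0.07, adjusted p = 1.69e-05). C4-2B-EnzR controls held more of it, at 64.3, 57.7 and 47.4, and the knockdown libraries read 15.96, 15.8 and 16.3, a change of -1.79 (SE 0.11, adjusted p = 0.000163). Control and knockdown values did not overlap in either line, and the knockdown libraries of each line lay close together. MX1, an interferon-induced gene annotated on the opposite strand over 562 of its exon bases, rose in LNCaP-EnzR (1.16, adjusted p = 0.00805) while TMPRSS2 fell, and did not pass in C4-2B-EnzR (0.15, adjusted p = 0.446). The setting for strand in the counting is not given, so reads of overlapping genes could not be assigned to one of them. Of the 34 listed genes, 20 share exon bases with another GENCODE gene, among them ALDH1A3 (1715 bases), MED28 (3520) and NANS (422).

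ABCC4 (MRP4), an efflux pump for cyclic nucleotides and prostanoids, fell in both lines. It read 12.2, 10.1 and 10.5 RPKM in LNCaP-EnzR LKO and 3.46, 3.73 and 3.33 in shCXCR7 (-1.57, SE 0.09, adjusted p = 1.34e-05). The C4-2B-EnzR libraries gave 10.6, 10.0 and 7.99 against 4.02, 4.32 and 4.05 (-1.15, SE 0.12, adjusted p = 0.000797). Every knockdown library lay below every control library. The gene is on chromosome 13 (95019835 to 95301475, minus strand). It was the member with the largest fall in LNCaP-EnzR among those with a RefSeq promoter entry (GRCh38.p14), so the 250 bases before its start, chr13:95301452-95301701, minus strand, are shown, with no base in capitals since neither word searched below occurs in them.
ABCC4: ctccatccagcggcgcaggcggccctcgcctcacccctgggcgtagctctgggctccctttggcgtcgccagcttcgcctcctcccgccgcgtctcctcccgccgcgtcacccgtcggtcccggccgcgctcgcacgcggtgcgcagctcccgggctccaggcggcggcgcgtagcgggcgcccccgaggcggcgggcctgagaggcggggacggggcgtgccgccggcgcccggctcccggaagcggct

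ADAMTS1, a secreted metalloprotease that cleaves proteoglycans of the extracellular matrix, fell in LNCaP-EnzR, from 98.6, 92.3 and 83.6 RPKM to 50.7, 51.0 and 42.3 (-0.93, SE 0.10, adjusted p = 0.00022). In C4-2B-EnzR it was far lower in the controls, at 13.0, 10.7 and 8.60, and the knockdown libraries read 12.5, 12.5 and 13.8 (0.27, SE 0.15, adjusted p = 0.188). The C4-2B-EnzR groups overlapped, and without LKO replicate 1 the gene passed as higher there (0.41, adjusted p = 0.0368; 0.0368 to 0.402 over all alternatives). The remaining transport genes passed in neither line. AZGP1, a secreted zinc-binding glycoprotein, was at -0.01 (SE 0.10) and -0.20 (SE 0.11). TPD52, a vesicle-traffic protein often amplified in prostate cancer, was at 0.03 (SE 0.09) and 0.30 (SE 0.17). RAB3B, a small GTPase of secretory vesicles, was at 0.333, 0.382 and 0.451 RPKM in LNCaP-EnzR LKO and 0.194, 0.231 and 0.904 in shCXCR7, and only the library with the high background lay above the controls. It passed as lower without that library (-0.49, adjusted p = 0.0427; 0.0427 to 0.993 over all alternatives). In C4-2B-EnzR its groups did not overlap, at 1.62, 1.74 and 2.08 against 1.23, 1.43 and 1.33, but the adjusted p was 0.0558.

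Metabolic enzymes held both the largest fall in LNCaP-EnzR and genes that rose. PPAP2A, a membrane phosphatase that removes phosphate from lysophosphatidic and phosphatidic acid, lies on chromosome 5 (55424854 to 55534969, minus strand). It read 105.4, 97.5 and 99.99 RPKM in LNCaP-EnzR LKO and 31.0, 31.7 and 29.1 in shCXCR7 (-1.71, SE 0.07, adjusted p = 4.05e-06). With factors shared by the LKO libraries, C4-2B-EnzR controls held less of it than those of LNCaP-EnzR (-0.36, SE 0.07, adjusted p = 0.00415). On the factors of its own line, it fell in C4-2B-EnzR from 103, 96.2 and 88.9 to 43.8, 47.0 and 50.04 (-1.03, SE 0.08, adjusted p = 0.000318). Knockdown libraries thus kept 30.3% of the control mean in the first line and 48.9% in the second. SKIV2L2 (MTREX), annotated on the opposite strand over 481 of its exon bases, rose in LNCaP-EnzR (0.38, adjusted p = 0.0181).

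GNMT, which uses S-adenosylmethionine to methylate glycine, rose in both lines. Its LNCaP-EnzR levels were 3.11, 1.98 and 2.91 RPKM in LKO and 4.33, 4.11 and 5.72 in shCXCR7 (0.78, SE 0.18, adjusted p = 0.00991), and without shCXCR7 replicate 3 the call was lost (0.65, adjusted p = 0.0558; 0.00315 to 0.664 over all alternatives). C4-2B-EnzR gave 1.93, 2.995 and 3.26 against 5.99, 5.89 and 5.71 (1.07, SE 0.18, adjusted p = 0.00527), where all 3 knockdown libraries stood well above the controls. ALDH1A3, which oxidises retinal to retinoic acid, went from 1.63, 1.33 and 1.11 to 2.17, 2.61 and 3.12 in LNCaP-EnzR (0.84, SE 0.18, adjusted p = 0.00622). Its rise in C4-2B-EnzR was small, from 1.55, 1.40 and 1.30 to 1.84, 1.96 and 1.81 (0.35, SE 0.11, adjusted p = 0.0457). That call was lost without any one of LKO replicates 2 and 3 or shCXCR7 replicates 1, 2 and 3 (log2 fold change 0.30 to 0.37), and it held under 6 of 18 alternatives in all.

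ACSL3, which activates long-chain fatty acids, rose in C4-2B-EnzR from 26.3, 27.6 and 26.4 RPKM to 35.1, 34.8 and 36.7 (0.41, SE 0.05, adjusted p = 0.00186). In LNCaP-EnzR it was at 0.14 (SE 0.10), and it passed there without shCXCR7 replicate 3 (0.24, adjusted p = 0.0494; 0.0418 to 0.902 over all alternatives). SORD, the sorbitol dehydrogenase of the polyol pathway, and NANS, which makes sialic acid precursors, were abundant and passed in neither line. SORD was at -0.12 (SE 0.10) and 0.08 (SE 0.06), and it has near-identical pseudogene copies between which the counting could have split reads. NANS was at -0.10 (SE 0.08) and -0.14 (SE 0.08). Of the 2 enzymes below the floor, HPGD degrades prostaglandins and had 0 to 20 reads a library, and STEAP4, a metalloreductase, had 1 to 49.

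Of 7 signalling proteins and receptors, 2 rose (28.6% against 16.8% of all genes) and 0 fell in LNCaP-EnzR, and 2 rose (28.6% against 19.4%) and 1 fell (14.3% against 19.5%) in C4-2B-EnzR. SGK1, a serum- and glucocorticoid-induced kinase, lies on chromosome 6 (134169248 to 134318112, minus strand). It read 0.527, 0.454 and 0.536 RPKM in LNCaP-EnzR LKO and 1.54, 1.26 and 2.12 in shCXCR7, so knockdown libraries held 325% of the control mean. On the log2 scale with 0.25 added, which understates changes of low genes, this was 1.30 (SE 0.23, adjusted p = 0.00245). C4-2B-EnzR libraries gave 1.95, 2.08 and 1.74 against 3.14, 2.93 and 3.06 (0.60, SE 0.10, adjusted p = 0.00512). No knockdown library overlapped with a control of its line. As the member with the largest rise in LNCaP-EnzR, its 250 bases before the start, chr6:134318113-134318362, minus strand, from RefSeq (GRCh38.p14), are shown for comparison with those of ABCC4, again with no word in capitals.
SGK1: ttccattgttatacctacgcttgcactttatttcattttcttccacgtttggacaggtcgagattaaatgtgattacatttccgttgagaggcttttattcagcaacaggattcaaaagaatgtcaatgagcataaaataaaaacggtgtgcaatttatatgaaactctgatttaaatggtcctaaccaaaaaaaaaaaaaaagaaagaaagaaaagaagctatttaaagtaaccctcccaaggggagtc
The ABCC4 stretch was 80.4% G or C and the SGK1 stretch 33.6%, beside a median of 64% over the 25 listed genes with an entry and 58% over all promoters. The SGK1 stretch borders the outer end of the annotated gene, at 134318112. Whether these cells start the SGK1 transcript there was not tested. The shares therefore describe the letters shown, not promoters in use.

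LIFR, the receptor for leukemia inhibitory factor, rose from 2.46, 2.34 and 2.57 RPKM to 4.33, 4.26 and 3.70 in LNCaP-EnzR (0.68, SE 0.10, adjusted p = 0.00117). Its C4-2B-EnzR values went from 5.77, 6.32 and 5.80 to 8.03, 7.90 and 8.06 (0.41, SE 0.07, adjusted p = 0.00508). LIFR-AS1, annotated on the opposite strand over 629 of its exon bases, rose as well in both lines (1.11 and 1.01, adjusted p = 0.00296 and 0.0203). CAMKK2, a calcium-dependent kinase upstream of AMPK, fell in C4-2B-EnzR from 13.1, 13.2 and 14.2 to 10.1, 9.99 and 10.7 (-0.39, SE 0.06, adjusted p = 0.00486). It was at -0.16 (SE 0.09) in LNCaP-EnzR, where shCXCR7 replicate 3 alone overlapped with the controls, and it passed without that library (-0.25, adjusted p = 0.0313; 0.0313 to 0.721 over all alternatives). PMEPA1, an inhibitor of TGF-beta signalling, had non-overlapping LNCaP-EnzR groups, at 3.01, 2.96 and 3.18 against 3.57, 3.66 and 3.60, with an adjusted p of 0.0811. PTGER4, a prostaglandin E receptor, was at 0.60 (SE 0.38) and 0.40 (SE 0.22) and passed in neither line. KCNN2, a calcium-activated potassium channel, passed in neither as well, at 0.34 (SE 0.30) and 0.27 (SE 0.18), and without the library with the high background its LNCaP-EnzR value was -0.0095.

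FKBP5, a co-chaperone of steroid receptors and a widely used reporter of androgen receptor activity, did not pass in either line. It read 2.503, 2.83 and 2.77 RPKM in LNCaP-EnzR LKO and 2.88, 2.83 and 2.84 in shCXCR7, which gives 0.07 with a 95% interval from -0.16 to 0.30. In C4-2B-EnzR the controls spread widely, at 2.60, 3.55 and 4.11, and the knockdown libraries read 2.63, 2.38 and 2.73 (-0.35, 95% interval -0.76 to 0.05, adjusted p = 0.141). Without LKO replicate 1, which overlapped with the knockdown libraries, it passed as lower (-0.53, adjusted p = 0.019; 0.019 to 0.328 over all alternatives).

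The word AGAACA, 1 arm of the element that androgen and glucocorticoid receptors bind, was searched on both strands in RefSeq promoters from 250 bases before to 50 after the start (GRCh38.p14). Of the 34 listed genes, 25 had an entry. The word occurred in 3 of the 25 (12%), and in 14.9% of all 27305 promoters. The full inverted repeat, which is this word, any 3 bases and the word's reverse complement, occurred in none of the 25 and in 1 of all. Called in neither line were 36.7% of the 30 members and 46.1% of all genes. All 3 listed genes with the word, FKBP5, PMEPA1 and NANS, were among them. Their 30 bases around it, with the word in capitals, lie at chr6:35728566-35728595 (minus strand), chr20:57711433-57711462 (minus strand) and chr9:98056722-98056751 (plus strand).
FKBP5: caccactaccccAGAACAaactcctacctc
PMEPA1: cttgacttctccAGAACAagcctcctggtc
NANS: agcgttgctcacAGAACAgagtagaggcgg
The word starts at base 1, 23 and 3 after the start, and a match or its absence in this window is a description of letters, not of binding.

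Of 6 transcription regulators, 1 fell and 0 rose in LNCaP-EnzR, near the share of all genes for falls (16.7% against 19.1%). In the other line 2 fell and 2 rose, or 33.3% each against 19.5% and 19.4%. ZBTB10, a zinc finger repressor, fell in both lines. It was at 3.97, 3.99 and 3.98 RPKM in LNCaP-EnzR LKO and 2.45, 1.94 and 2.28 in shCXCR7 (-0.78, SE 0.11, adjusted p = 0.000848). In the other line it went from 2.63, 3.41 and 3.22 to 2.11, 1.67 and 1.82 (-0.65, SE 0.14, adjusted p = 0.0106). ELL2 and EAF2 are partners in transcription elongation, and in C4-2B-EnzR they moved in opposite directions. ELL2 fell from 3.49, 3.70 and 3.52 to 2.90, 2.36 and 2.90 (-0.37, SE 0.11, adjusted p = 0.0359). That call was lost when any single library of the line was left out (adjusted p = 0.0568 to 0.106), and it held under 8 of 18 alternatives in all. EAF2 rose from 3.07, 3.84 and 3.88 to 4.52, 5.48 and 4.996 (0.45, SE 0.12, adjusted p = 0.0279), and the call was lost without LKO replicate 2, shCXCR7 replicate 2 or shCXCR7 replicate 3 (0.39 to 0.50) and by voom (0.48). In LNCaP-EnzR, ELL2 was at 0.03 (SE 0.10), and EAF2 was at 0.55 (SE 0.20, adjusted p = 0.0558) with groups that did not overlap.

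TSC22D1, a leucine zipper protein of the TGF-beta response, rose in C4-2B-EnzR from 8.49, 8.19 and 8.56 RPKM to 11.9, 11.3 and 11.8 (0.46, SE 0.06, adjusted p = 0.00205). Its LNCaP-EnzR values were 17.7, 18.0 and 17.8 against 19.9, 20.3 and 17.7, where the last library decided the overlap, and without it the gene passed there too (0.17, adjusted p = 0.0207; 0.00748 to 0.889 over all alternatives). MED28, a Mediator subunit, was at -0.02 (SE 0.10) and -0.09 (SE 0.08). ZBTB16 (PLZF), a growth-restraining zinc finger protein, was at 0.15 (SE 0.29) and 0.27 (SE 0.33), and its C4-2B-EnzR controls alone spread from 0.849 to 2.34 RPKM. MAF, a bZIP factor below the floor, had 0 to 87 reads a library.

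In the last role group, of mitotic, cytoskeletal and other genes, 3 of 5 fell in each line (60% against 19.1% and 19.5% of all genes) and 2 rose in C4-2B-EnzR (40% against 19.4%). CENPN, which binds the centromeric nucleosome and helps to build the kinetochore, fell from 6.64, 6.35 and 6.37 RPKM to 4.45, 4.22 and 4.55 in LNCaP-EnzR (-0.53, SE 0.08, adjusted p = 0.00098). C4-2B-EnzR held more of it in the controls, at 16.9, 16.2 and 17.0, and fell to 7.61, 8.68 and 6.94 (-1.09, SE 0.09, adjusted p = 0.000403). CMC2, a mitochondrial protein gene annotated on the opposite strand over 240 of its exon bases, fell too (-0.89 and -0.67, adjusted p = 0.00165 and 0.000668). HERC3, a HECT-type ubiquitin ligase, went from 15.3, 14.08 and 17.0 to 9.96, 10.1 and 8.99 (-0.66, SE 0.09, adjusted p = 0.000611), and in C4-2B-EnzR from 6.47, 5.995 and 5.76 to 3.51, 2.99 and 3.46 (-0.83, SE 0.10, adjusted p = 0.0013). MPHOSPH9, a centrosomal phosphoprotein, fell in C4-2B-EnzR from 9.44, 10.1 and 10.3 to 7.02, 6.68 and 6.45 (-0.55, SE 0.07, adjusted p = 0.00183) and was at -0.16 (SE 0.09) in LNCaP-EnzR.

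C1orf116 (SARG), named for its specific regulation by androgen, was the single member called in opposite directions. Of all genes, 0.366% were lower in LNCaP-EnzR and higher in C4-2B-EnzR, and 0.317% the reverse. It fell in LNCaP-EnzR from 14.3, 14.998 and 13.42 RPKM to 9.57, 9.51 and 9.63 (-0.56, SE 0.07, adjusted p = 0.000391). In C4-2B-EnzR it rose from 7.72, 7.28 and 7.60 to 10.7, 10.4 and 10.9 (0.49, SE 0.06, adjusted p = 0.0017). Groups were tight and did not overlap in either line. TUBA3D, an alpha-tubulin, was near the floor, and every C4-2B-EnzR control lay below it. It read 0.252, 0.316 and 0.194 against 0.595, 0.535 and 0.410 in that line (0.60, SE 0.18, adjusted p = 0.0356). The call was lost when LKO replicate 1, LKO replicate 3, shCXCR7 replicate 1 or shCXCR7 replicate 2 was left out (0.51 to 0.60), and by voom (0.97). It held under 8 of 16 alternatives in all. The TUBA3D transcript is 98.5% identical to that of TUBA3E, so reads could have been split between the genes. PART1 had 1 to 124 reads a library.

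**Figure D2:**
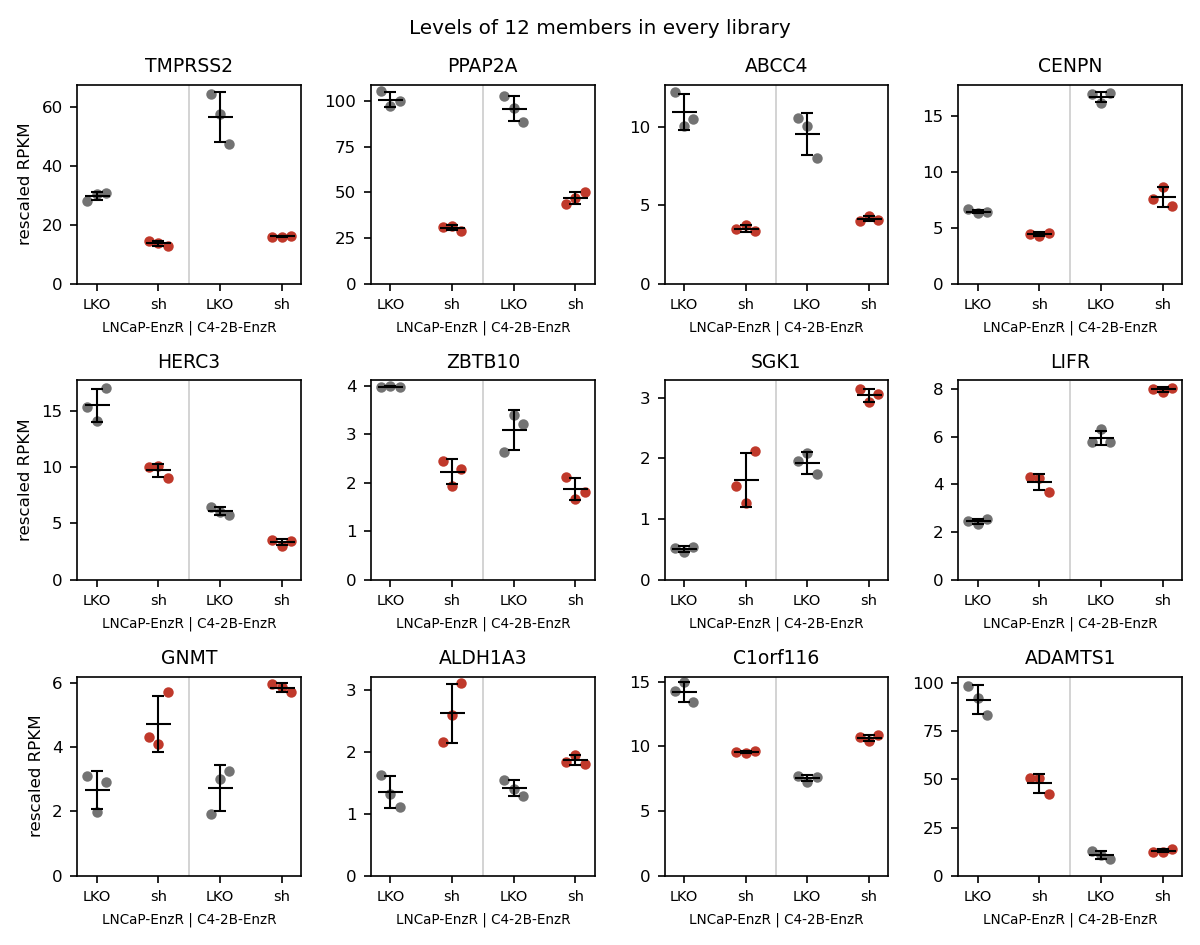
Rescaled RPKM of 12 members in every library (y axes from 0, points are libraries, bars are mean ± SD of 3) for LKO (grey) and shCXCR7 (red) in each resistant line. The 6 members lower in both lines and the 4 higher in both show no overlap of groups, while C1orf116 goes opposite ways and ADAMTS1 falls from 91.5 to 48.0 in LNCaP-EnzR.

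Whether the effect of the knockdown differed between the lines was tested by an interaction term over the 12 libraries, given as the C4-2B-EnzR effect minus the LNCaP-EnzR effect on the log2 scale. It was called for 7 of 30 members (23.3%), against 11.7% of all genes. Of these, 3 were negative (10% against 5.96%) and 4 positive (13.3% against 5.77%). The effect was more negative in C4-2B-EnzR for TMPRSS2 (-0.68, SE 0.13, adjusted p = 0.00782), CENPN (-0.57, SE 0.11, adjusted p = 0.00813) and MPHOSPH9 (-0.39, SE 0.11, adjusted p = 0.0434). The fall of PPAP2A was smaller in C4-2B-EnzR (0.69, SE 0.11, adjusted p = 0.00213). ADAMTS1 (1.20, SE 0.18, adjusted p = 0.00193) and C1orf116 (1.05, SE 0.09, adjusted p = 6.78e-05) were higher on this scale, both having fallen in LNCaP-EnzR alone, and TSC22D1 rose more in C4-2B-EnzR (0.35, SE 0.09, adjusted p = 0.0285). For SGK1 the difference was -0.70 (SE 0.23, adjusted p = 0.068), and without LNCaP-EnzR shCXCR7 replicate 2 it passed (-0.84, adjusted p = 0.0304; 0.0304 to 0.74 over all alternatives). Calls for TSC22D1 and MPHOSPH9 held under 14 and 9 of 23 alternatives, while each of the other 5 held under 22. None of the 7 passed on deposited values, where 0.232% of all genes were called negative and 0.141% positive. There the differences of TMPRSS2 (-0.31), CENPN (-0.22) and MPHOSPH9 (-0.039) were smaller in size, and those of PPAP2A (1.05), TSC22D1 (0.72), ADAMTS1 (1.57) and C1orf116 (1.41) larger. The sign of the change was shared by 24 of 30 members (80%), against 71.1% of all genes. Knockdown was deeper in C4-2B-EnzR, where ACKR3 kept 25.3% of its control mean, against 42.2% for the other line. The part of this depth in the differences between lines was not tested.

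**Figure D3:**
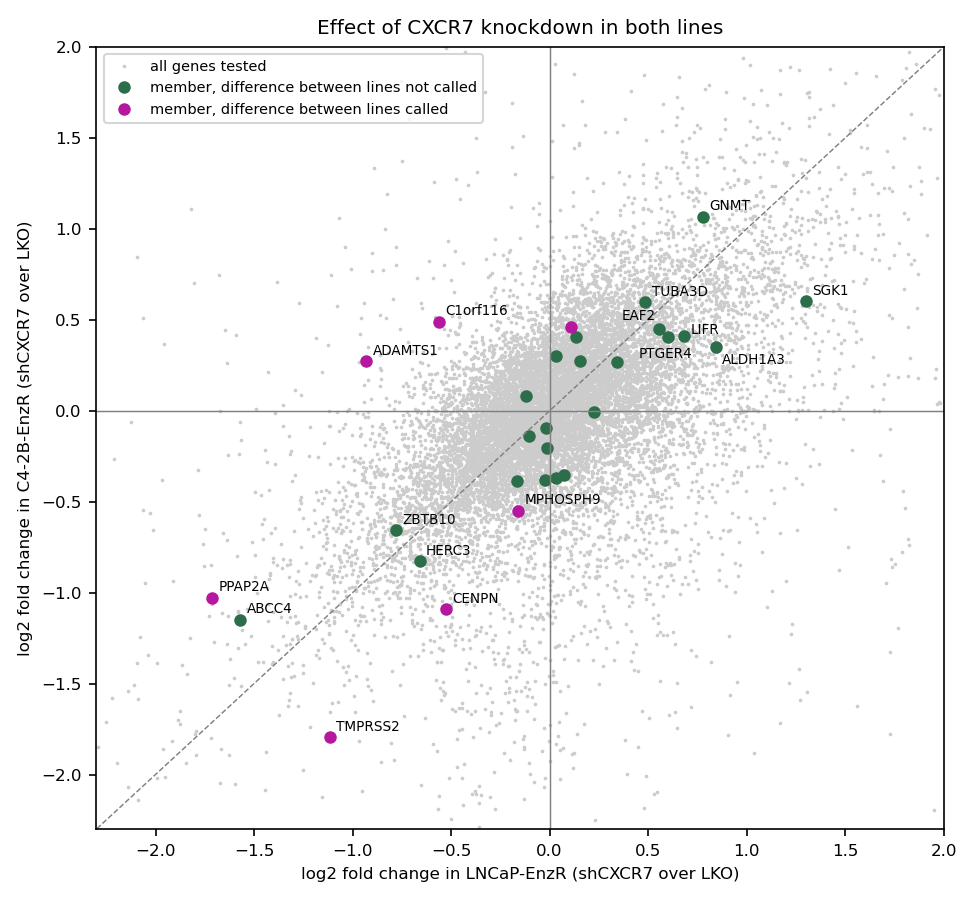
Log2 fold change after CXCR7 knockdown in LNCaP-EnzR (x axis) and C4-2B-EnzR (y axis) cells for all genes tested (grey, axes cut at -2.3 and 2) and for members, coloured by the interaction test, with the dashed line at equal change. TMPRSS2 and CENPN lie below that line, PPAP2A above it, and C1orf116 and ADAMTS1 in the upper left.

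Control levels of the members also differed between the lines, a comparison that uses the same LKO libraries as the knockdown ones and in which line, enzalutamide dose and P number cannot be told apart. With factors taken over the 6 LKO libraries, 12 members were lower and 12 higher in C4-2B-EnzR than in LNCaP-EnzR, or 40% each against 30.6% and 31.7% of all genes. ADAMTS1 differed most, at 115, 107 and 97.3 RPKM in LNCaP-EnzR and 12.5, 10.2 and 8.13 in C4-2B-EnzR (-3.36, SE 0.15, adjusted p = 5.84e-06). KCNN2 (-1.76), HERC3 (-1.59), TSC22D1 (-1.34), C1orf116 (-1.18) and TPD52 (-1.01) were lower by more than 1 on the log2 scale. RAB3B (1.49), SGK1 (1.31), EAF2 (1.22) and CENPN (1.06) were higher by more than 1. KCNN2 reached the floor in LNCaP-EnzR libraries only. RAB3B reached it in every C4-2B-EnzR library, but in LNCaP-EnzR only in LKO replicate 3. TUBA3D reached it in every LNCaP-EnzR library but LKO replicate 1, and in C4-2B-EnzR only in shCXCR7 replicates 1 and 2. KCNN2, RAB3B and TUBA3D were thus kept through the line where their controls were high, and the floor favoured their differences. TMPRSS2 was higher in C4-2B-EnzR as well (0.62, SE 0.11, adjusted p = 0.00277), while PPAP2A (-0.36, SE 0.07) and ABCC4 (-0.48, SE 0.13) were lower. ELL2, ZBTB16, FKBP5, PTGER4, GNMT and ALDH1A3 did not pass. RPKM is a level per length, so genes can be set in order. PPAP2A stood at the top in C4-2B-EnzR (91.3 ± 7.14, SD, n = 3), and in LNCaP-EnzR it (117 ± 4.97) and ADAMTS1 (106 ± 8.70) overlapped at the head of the order. TMPRSS2 followed at 53.8 ± 8.39 in C4-2B-EnzR, overlapping with SORD (46.9 ± 1.80), and in LNCaP-EnzR TMPRSS2 (34.6 ± 1.62), SORD (35.75 ± 0.952) and NANS (32.6 ± 0.314) lay together. At the low end of the order, LNCaP-EnzR had its lowest mean for PTGER4 (0.371 ± 0.0303), while in the other line PTGER4 (0.349 ± 0.110), KCNN2 (0.261 ± 0.0730) and TUBA3D (0.242 ± 0.0585) overlapped.

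**Figure D4:**
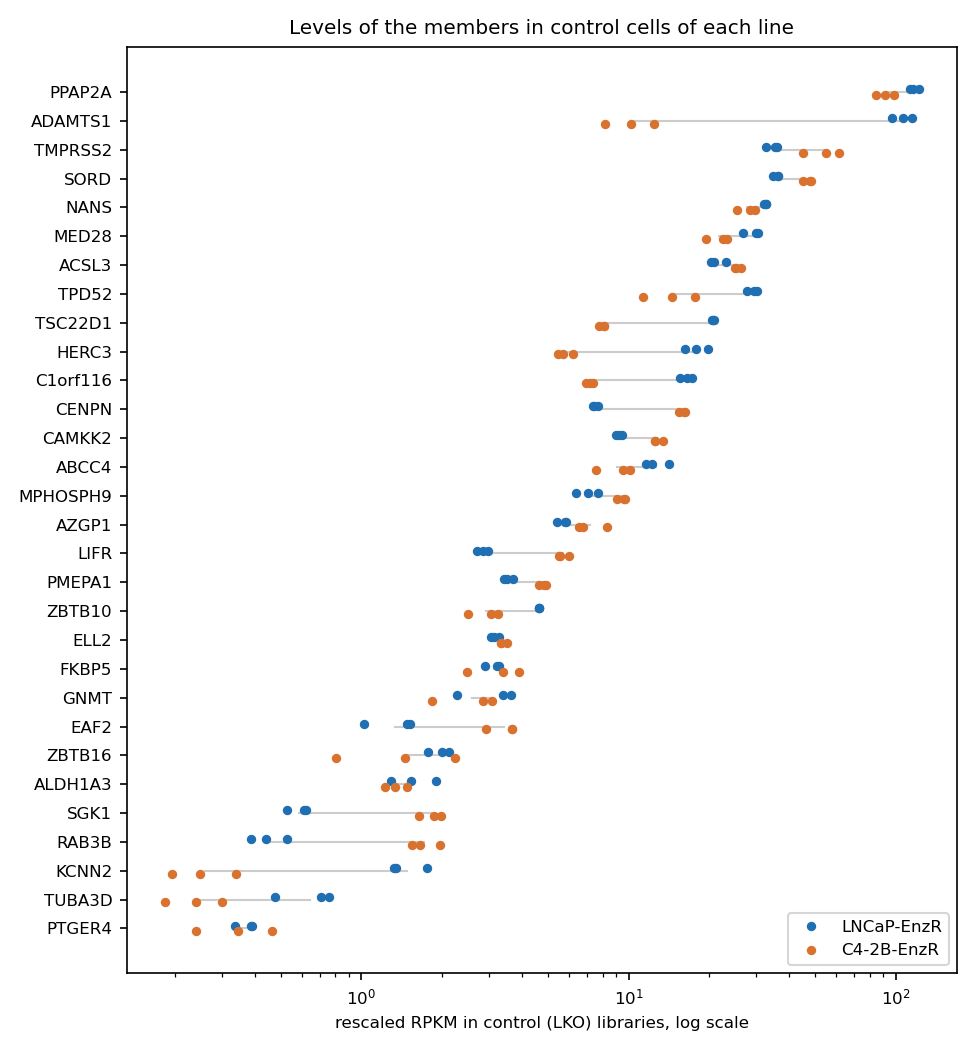
Rescaled RPKM (x axis, log scale) of the 30 members in the 3 control libraries of LNCaP-EnzR (blue) and C4-2B-EnzR (orange) cells, with a grey line between the line means. The widest gap is that of ADAMTS1 (106 against 10.3), and the members span from 0.242 (TUBA3D) to 117 (PPAP2A).

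**Figure D5:**
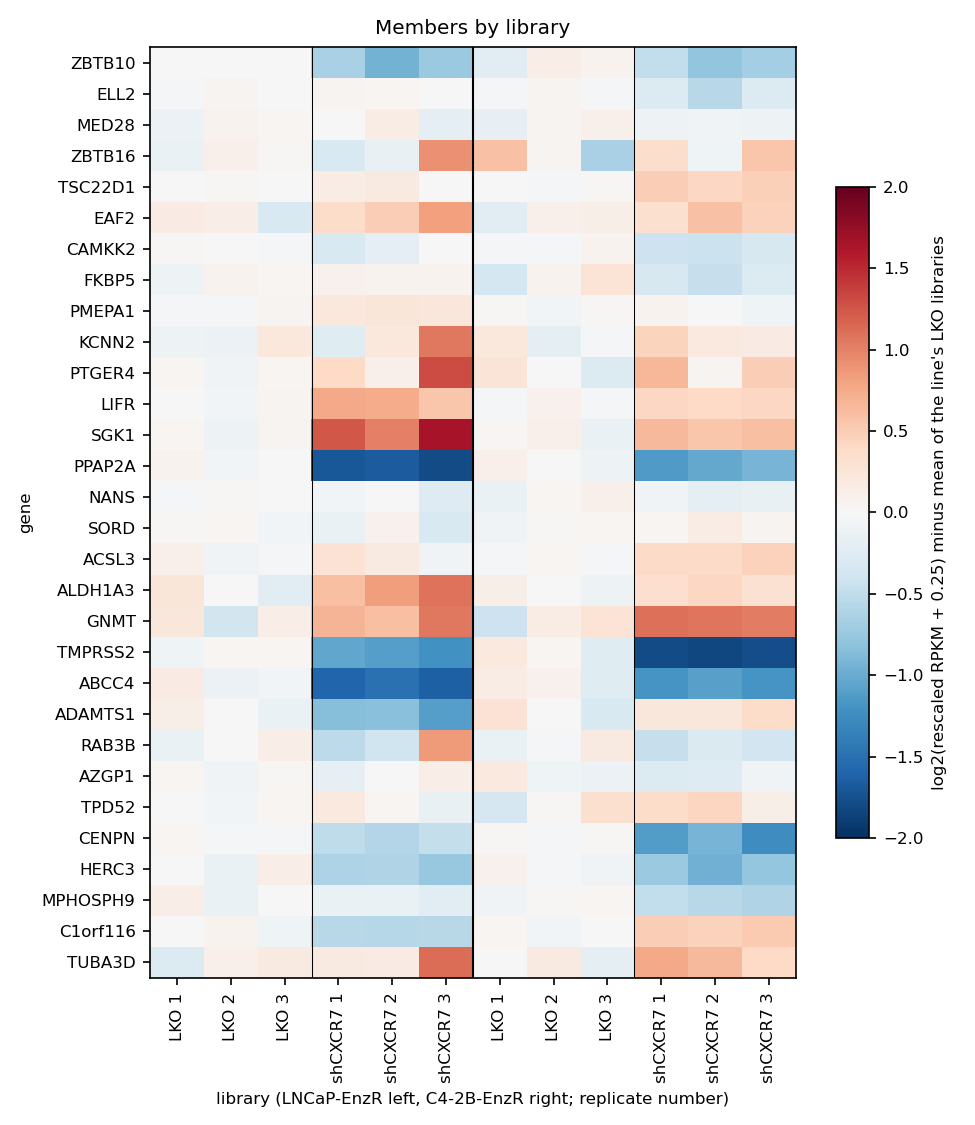
Each member (rows, grouped by role) in each library (columns), coloured by log2(rescaled RPKM + 0.25) minus the mean of the same line's 3 LKO libraries, on a scale from -2 to 2. In LNCaP-EnzR shCXCR7 replicate 3, the low genes ZBTB16, KCNN2, PTGER4, RAB3B and TUBA3D are redder than in the 2 other knockdown libraries.

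Other genes of the pathway were counted from lists written from textbook knowledge. Their counts stand beside 19.1% lower and 16.8% higher of all genes in LNCaP-EnzR and 19.5% and 19.4% in C4-2B-EnzR. The 3 kallikreins, secreted proteases that serve as the classical readout, fell in both lines, with KLK3 at -1.80 and -1.78, KLK2 at -2.14 and -1.54 and KLK4 at -2.78 and -1.51. Of 72 other androgen response genes tested, 24 fell and 14 rose in LNCaP-EnzR and 20 fell and 25 rose in C4-2B-EnzR (33.3% and 19.4%, and 27.8% and 34.7%), with medians of -0.07 and 0.11. CCND1, the G1 cyclin D1, fell by 1.63 and 1.89 on the log2 scale, and SLC26A2, a sulfate transporter, by 1.42 and 0.89, whereas PTPN21, a phosphatase (1.72 and 1.23), and SEPP1, a selenium carrier (1.05 and 1.56), rose. Of 18 cofactors of the receptor, 6 fell and 2 rose in LNCaP-EnzR and 8 fell and 0 rose in C4-2B-EnzR, among them MED1, a Mediator subunit that contacts nuclear receptors (-1.85 and -1.94), HSP90AA1, their chaperone (-1.88 and -1.72), and the pioneer-like factor GATA2 (-0.95 and -0.90). NR3C2, the mineralocorticoid receptor gene, rose in LNCaP-EnzR (0.47, adjusted p = 0.0149) and did not pass in the other line (-0.35, adjusted p = 0.127). The glucocorticoid receptor gene NR3C1, whose product shares elements with the androgen receptor, fell in C4-2B-EnzR (-0.84) and was at 0.45 (SE 0.70) in LNCaP-EnzR, where it read 0.569 RPKM in shCXCR7 replicate 3 and at most 0.0605 in the others. Targets that both receptors share were split, as 2 of 6 fell and 3 rose in each line, with TSC22D3 at -2.25 and -1.71 and CEBPD at 1.63 and 1.31. Of 7 genes repressed by androgen, 1 rose in LNCaP-EnzR, and 1 rose and 2 fell in C4-2B-EnzR, with BCHE higher in both (0.64 and 1.57).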

How the data were processed

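RNA-Seq libraries (3 per group and cell line, 12 in all) were made by the authors with a NEBNext Ultra kit from total RNA, sequenced single-end, and aligned with STAR to hg38 per the labels and the methods. The authors deposited 1 table of RPKM per gene. The annotation and the strand setting of the counting were not given in the sources read here. Of 26475 lines, 32 held no value and 2 symbols were repeated, and 26441 genes were kept. Because RPKM scales by all mapped reads, reads outside genes lower the values of expressed genes. Whole reads were recovered from the RPKM steps for 21244 of 21244 genes with 2 or more values above 0, within 0.02 reads, giving 6381627 to 9833682 reads in genes per library and 4 to 6914 per member and library (median 371.5). Replicates differed by more than counting error (chi-square per degree of freedom 1.63 to 13.1 over 12 pairs).

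Values were rescaled within each line (for controls, over the 6 LKO libraries) by median-of-ratios factors and tested with limma 3.58.1 in R 4.3.3 (lmFit, eBayes with a variance trend) on log2(RPKM + 0.25), over all 14204 genes with at least 0.5 RPKM in 3 of 12 columns. P-values were adjusted by Benjamini and Hochberg's method over all these genes and called below 0.05. The difference between lines was an interaction term. The file holds RPKM, so no count model was the main test, and voom on the recovered reads was an alternative. With 3 against 3 libraries the exact permutation test cannot give a two-sided p below 0.1, which ACKR3 had in each line. Every listed gene is named, with at most 4 called genes of each pathway list. Members and lists were chosen with earlier results of these data known. Alternatives were other pseudocounts, filters, scalings, variance models, background subtraction, a replicate block and leaving out each library. The model and the recovery of reads were tested on simulated data. Coordinates and exon overlaps came from GENCODE 44, promoters from RefSeq (GRCh38.p14). Other steps used scipy 1.17.1, pandas 2.3.3, numpy 2.4.6, matplotlib 3.10.9 and numba 0.67.0 under Python 3.11.15. Some genes of the pathway lists are not reported here.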

Additional observations from a re-analysis of the deposited data

Results flagged for a closer look

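The effect of CXCR7 knockdown differed between the lines, by the interaction term of limma over 12 libraries, for 7 of the 30 members, against 11.7% of all genes. Differences are the C4-2B-EnzR effect minus the LNCaP-EnzR effect on the log2 scale, followed by the effect in each line, LNCaP-EnzR first. C1orf116 differed by 1.05 (-0.56 and 0.49) and ADAMTS1 by 1.20 (-0.93 and 0.27, the second not called). PPAP2A differed by 0.69 (-1.71 and -1.03). TMPRSS2 differed by -0.68 (-1.12 and -1.79) and CENPN by -0.57 (-0.53 and -1.09). TSC22D1 differed by 0.35 (0.11, not called, and 0.46) and MPHOSPH9 by -0.39 (-0.16, not called, and -0.55). The lines also differed in enzalutamide dose, P number and depth of the knockdown, which cannot be told apart from the line. LNCaP-EnzR knockdown libraries kept 42.2% of the control mean of ACKR3 (-1.25), and those of C4-2B-EnzR kept 25.3% (-1.97). The part of this depth in the 7 differences was not tested. The library with the high background belongs to the LNCaP-EnzR knockdown group. Without it the same 7 members were called, 3 negative and 4 positive, against 6.17% and 5.37% of all genes.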

How the results depend on the processing

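Deviations of same-numbered libraries correlated at -0.055 to 0.0605 in LNCaP-EnzR and -0.303 to 0.0581 in C4-2B-EnzR. Those of libraries with unlike numbers ran from -0.0707 to 0.0566 and from -0.265 to 0.261 in the respective lines. These values cannot tell whether libraries were prepared in pairs. With a replicate block, 12 members were called in LNCaP-EnzR, 15 in C4-2B-EnzR (8 lower, 7 higher), 5 for the difference between lines (2 and 3) and 24 between controls. On deposited values, 3 members were called in LNCaP-EnzR (2 lower, 1 higher) and 0 for the difference between lines (0 lower, 0 higher). With a 2-fold change and an adjusted p below 0.001, 3 were called in LNCaP-EnzR (3 lower, 0 higher) and 4 in C4-2B-EnzR (4 lower, 0 higher). Leaving out each library in turn gave 12 to 15 calls in LNCaP-EnzR, 14 to 21 in C4-2B-EnzR, 5 to 9 for the difference between lines (2 to 4 negative, 3 to 5 positive) and 21 to 25 between controls. Shares of all genes under the block, and without libraries other than LNCaP-EnzR shCXCR7 replicate 3, are not given here. These counts therefore show only how the members' calls moved, and not whether the members differ from all genes. Members with the fewest reads were TUBA3D (median 11 a library), PTGER4 (18), KCNN2 (27) and EAF2 (38), for which counting error is largest.

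Signs turned only for members that were not called, on the log2 scale. In LNCaP-EnzR on deposited values, ACSL3 was at -0.19, ELL2 at -0.26, FKBP5 at -0.22, PMEPA1 at -0.076, TPD52 at -0.30, TSC22D1 at -0.22 and ZBTB16 at -0.15. By quantile normalization, AZGP1 was at 0.0049, ELL2 at -0.034 and MED28 at 0.077. Factors from genes of 5 RPKM or more gave 0.0255 for AZGP1, 0.022 for MED28 and 0.015 for RAB3B. A filter of 1 RPKM in 6 columns gave 0.0088 for AZGP1 and 0.0049 for MED28, background subtraction gave -0.0048 for ELL2 and 0.023 for MED28, a pseudocount of 1 gave 0.022 for RAB3B, and voom gave 0.012 for AZGP1. In C4-2B-EnzR, PMEPA1 was at 0.025 on deposited values and 0.068 by quantile normalization, which between controls put ELL2 at -0.018 and FKBP5 at -0.10. With 1 library left out, values in LNCaP-EnzR ran from -0.081 to 0.064 for AZGP1, -0.10 to 0.075 for MED28, -0.0095 to 0.63 for KCNN2, -0.49 to 0.22 for RAB3B, -0.0496 to 0.13 for TPD52 and -0.23 to 0.38 for ZBTB16. Those in C4-2B-EnzR ran from -0.048 to 0.031 for PMEPA1 and -0.051 to 0.57 for ZBTB16, and those between controls from -0.10 to 0.20 for FKBP5 and -0.1985 to 0.069 for PTGER4.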
